A study of Micropterus salmoides with 45 samples.

Results

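miR-460 is described here through both arms of its precursor, msa-miR-460-5p and msa-miR-460-3p in the files, which are 2 of the 266 miRNAs listed for the liver of largemouth bass (Micropterus salmoides) under acute hypoxia. Both arms were chosen by their measured levels, because these are higher at some hours of severe hypoxia, so the levels in severe hypoxia against control are given as a description with no test. The 45 small RNA libraries form 15 groups of oxygen level and hour with 3 libraries each. Control fish were kept at 7.0 mg/L dissolved oxygen, moderate hypoxia at 3.0 mg/L and severe hypoxia at 1.2 mg/L, each held within 0.2 mg/L. Nitrogen lowered the oxygen within 2 h, the end of this lowering was 0 h, and livers were taken at 0, 4, 8, 12 and 24 h. All fish were 6 months old, fasted, kept at 20 °C in 9 tanks of 30 fish (3 tanks per oxygen level) and anaesthetised with MS-222 before sampling. The labels link no library to a tank or a fish and do not say whether livers were pooled, so p-values measure the spread between libraries, and tank and oxygen level cannot be told apart.

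A miRNA precursor is a hairpin that Drosha and Dicer cut into a short duplex, and each strand of the duplex is named for its arm, 5p or 3p. Usually 1 strand is kept by an Argonaute protein and guides it to messenger RNAs through its seed, while the other is degraded, so the balance of the arms reports which strand is retained. miR-460 is annotated in fish such as zebrafish and in birds such as chicken. No role in liver is assumed for it here. No sequence of either arm is printed, since the files hold names and values only.

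Levels are in rpm, the deposited read numbers scaled to library depth. In each of the 15 groups, 1 of the 3 values of each arm equalled the mean of the other 2, so every group rests on 2 measured values per arm, 30 per arm in all, and the third adds nothing. Averaged values were left out of the levels, differences and fits below, and which library holds the averaged value can differ between the arms. Averaged values stayed in the means over all 45 libraries, the summed rpm of the listed miRNAs, the rescalings and the marker sums. Neither arm was at 0 in any library. From the spacing of low values, depth was inferred as 1.01 to 5.57 mega-reads per library. The measured values of miR-460-5p then stand for 61 to 1142 reads, with a counting error of 12.8% down to 3.0%, and those of miR-460-3p for 90 to 3489 reads, with a counting error of 10.5% down to 1.7%. These errors cover counting only. The summed rpm of the listed miRNAs ran from 300084 to 961089 between libraries and moved with group. Levels are therefore also given in listed-scaled rpm, that is, with the listed total of a library as the denominator. The hepatocyte marker miR-122-5p was present in all 45 libraries, at 3317 to 39344 rpm (median 6751), and was 16th of 266 listed miRNAs by mean. Its presence fits the labelled tissue but does not by itself establish it.

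miR-460 was of middling abundance. The 3p arm averaged 332 rpm over all 45 deposited values (84th of 266 listed miRNAs) and the 5p arm 206 rpm (97th). They made up 0.0536% and 0.0332% of the listed reads. Measured values of miR-460-3p ran from 79.5 to 713 rpm, an 8.98-fold range, and those of miR-460-5p from 50.02 to 410.86 rpm, an 8.21-fold range.

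The 15 group means of miR-460-5p climbed from 60.6 rpm in control at 24 h to 359 rpm in control at 12 h. Both ends of the order were thus control groups. In all 14 pairs of neighbours in this order the measured values overlapped. The means of miR-460-3p climbed from 82.2 rpm in moderate hypoxia at 24 h to 616 rpm in severe hypoxia at 24 h. Of its 14 neighbouring pairs 12 overlapped. The exceptions were moderate hypoxia at 24 h below control at 24 h, and severe hypoxia at 0 h below moderate hypoxia at 12 h. In listed-scaled rpm the means of miR-460-5p ran from 138 (control, 0 h) to 577 (moderate, 8 h), and those of miR-460-3p from 225 (moderate, 24 h) to 1140 (severe, 24 h). The spans of the group means were then 4.18-fold and 5.07-fold, against 5.92-fold and 7.49-fold as deposited.

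**Figure D1:**
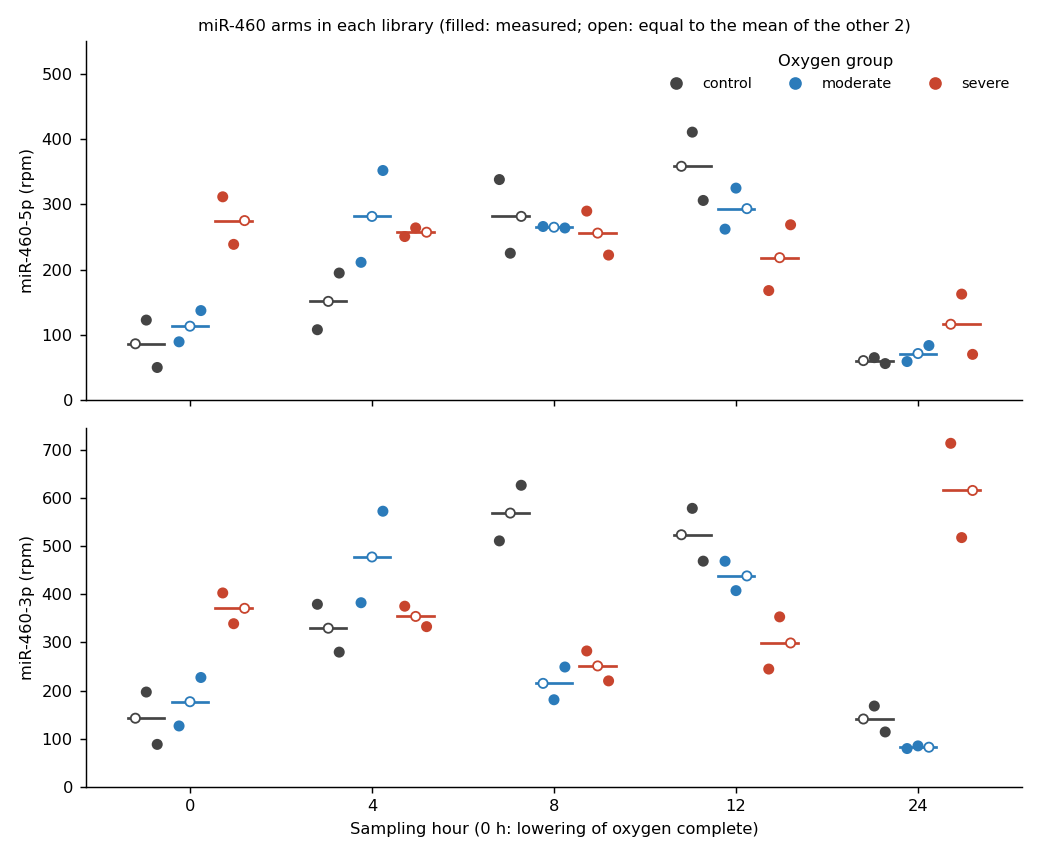
Level of miR-460-5p (top) and miR-460-3p (bottom) in rpm in each of the 45 libraries, by sampling hour and oxygen group. Filled points are measured values, open points equal the mean of the other 2, and bars are means of the measured values. Control values peak at 8 and 12 h, and the highest single 3p value (713 rpm) belongs to severe hypoxia at 24 h, whose other measured value is 518 rpm.

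At normal oxygen the group means of both arms differed between hours. miR-460-5p had a mean of 86.4 rpm at 0 h, 151 at 4 h, 282 at 8 h, 359 at 12 h and 60.6 at 24 h in control. The 3p arm had 142 rpm at 0 h, 329 at 4 h, 569 at 8 h, 524 at 12 h and 141 at 24 h. Both were lowest at the first and last hour and highest between them. The listed total of control libraries was itself low at 24 h (300084 to 359347 rpm) and high at 8 h (760957 to 848065 rpm). In listed-scaled rpm the control means of miR-460-5p were 138, 200, 365, 457 and 186 over the 5 hours, and those of miR-460-3p were 228, 439, 697, 667 and 438. Both arms were highest at 8 and 12 h in these values too. Control libraries took part in the choice of the arms, so no test is given.

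Severe hypoxia is described hour by hour. When it had just been reached, at 0 h, both arms stood above control. miR-460-5p had 239 and 312 rpm in severe hypoxia against 50.02 and 122.69 rpm in control (log2 difference 1.79). miR-460-3p had 339 and 403 rpm against 88.1 and 197 rpm (log2 difference 1.48). Measured values of neither arm overlapped between the groups, as for 27.1% of all 218 comparable miRNAs in this direction and for both arms of 7.35% of 68 precursors. The differences were as large per listed total, log2 1.88 and 1.58. Without 1 library the 5p difference lay between log2 1.15 and 2.42 and the 3p difference between 0.90 and 2.06. The listed erythrocyte markers, both arms of miR-144 out of a list of 6, moved the same way. Their sum was 5440 to 5530 rpm in severe hypoxia and 1730 to 2000 rpm in control, with neither arm at 0. So did the neuronal markers (4 listed of 5), at 68.1 to 85.5 rpm against 24.5 to 39.0 rpm. The pancreas markers (5 listed of 8) moved the other way, from 464 to 520 rpm in control to 117 to 204 rpm, with 1 at 0. Lower sums were also found for hepatocyte markers (51200 to 63900 rpm against 76900 to 84200 rpm) and muscle markers (16.0 to 26.9 rpm against 36.3 to 41.5 rpm). Their part in the result was not tested. In a bulk liver library, a change in the number of cells of a type and a change of RNA per cell cannot be told apart.

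At 4 h miR-460-5p stood above control and miR-460-3p overlapped it. miR-460-5p stood at 251 and 264 rpm in severe hypoxia against 108 and 195 rpm in control (log2 difference 0.82), without overlap, as for 31.7% of 221 miRNAs. The 3p arm had 333 and 375 rpm against 280 and 379 rpm, which overlap (log2 difference 0.12). Rescaling to the listed total left 0.78 and 0.06. The 5p difference was 0.40 without library 1 of control at 4 h and 1.25 without library 3. Without 1 library the 3p difference lay between -0.10 and 0.34. The arm difference, 3p minus 5p, of severe hypoxia minus control was -0.58 over libraries with both arms measured. Without 1 library it lay between -1.22 and 0.06, so a parting of the arms depended on single libraries. Marker sums of endothelium (35300 to 38700 rpm against 21000 to 25800 rpm), leukocytes (4830 to 4910 rpm against 3980 to 4510 rpm) and pancreas (677 to 984 rpm against 338 to 353 rpm) were higher in severe hypoxia, and their part in the result was not tested.

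The 8 and 12 h values lay at or below control. At 8 h miR-460-5p had 222 and 290 rpm in severe hypoxia and 225 and 338 rpm in control, which overlap (log2 difference -0.12). miR-460-3p had 220.0 and 282 rpm against 511 and 626 rpm (log2 difference -1.18), without overlap, as for 54.6% of 216 miRNAs in this direction. Part of this gap was shared by other miRNAs, as the median over all tested was log2 -0.28. Relative to the listed total miR-460-3p differed by -0.67 and miR-460-5p by 0.31. The erythrocyte sum was 443 to 545 rpm against 3130 to 5820 rpm at this hour and the endothelial sum (4 listed of 4) 17900 to 20400 rpm against 35700 to 49300 rpm. The pancreas sum (313 to 414 rpm against 180.0 to 236 rpm) and the muscle sum (66.2 to 79.5 rpm against 41.8 to 42.0 rpm) were higher. The part of these sums in the result was not tested. By 12 h miR-460-5p had 168 and 269 rpm against 306 and 411 rpm (log2 difference -0.74). miR-460-3p had 245 and 353 rpm against 469 and 578 rpm (log2 difference -0.82). Neither arm overlapped, as for 46.0% of all 213 comparable miRNAs in this direction at 12 h. Relative to the listed total the differences were -0.56 and -0.58. Without 1 library the 5p difference lay between -1.07 and -0.40, the smallest without library 1 of severe hypoxia, and the 3p difference between -1.09 and -0.56. The pancreas sum (263 to 330.0 rpm against 422 to 551 rpm) and the neuronal sum (20.7 to 24.7 rpm against 86.2 to 92.8 rpm) were also lower. The endothelial sum (36800 to 41800 rpm against 15300 to 16800 rpm) and the hepatocyte sum (103000 to 141000 rpm against 92400 to 99300 rpm) were higher. Their part in the result was not tested.

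At 24 h miR-460-3p reached its highest level. It had 518 and 713 rpm in severe hypoxia against 114 and 168 rpm in control (log2 difference 2.13). Its partner arm had 70.1 and 163 rpm against 56.0 and 65.1 rpm (log2 difference 0.81). Both arms were without overlap, but so were 55.9% of 213 miRNAs in this direction and both arms of 40.3% of 67 precursors. The listed total was 524255 to 539699 rpm in severe hypoxia and 300084 to 359347 rpm in control, and over all tested miRNAs the median was log2 0.45. Relative to the listed total the 3p difference was 1.42 and the 5p difference 0.13. Without 1 library the 5p difference lay between 0.21 and 1.41 and the 3p difference between 1.85 and 2.41. Several marker sums were higher in severe hypoxia. Among them were those of hepatocytes (78500 to 81700 rpm against 30900 to 49300 rpm) and endothelium (20000 to 21800 rpm against 5360 to 6920 rpm). Those of leukocytes (2810 to 3120 rpm against 1250 to 2270 rpm) and pancreas (421 to 459 rpm against 168 to 216 rpm) were higher too. So was the muscle sum (12.3 to 22 rpm against 9.86 to 11.7 rpm). The part of these sums in the result was not tested. The neuronal sum was lower (26.8 to 39.0 rpm against 73.8 to 196 rpm). The erythrocyte sum overlapped at this hour, 698 to 923 rpm against 690 to 1450 rpm.

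Set against moderate hypoxia, severe hypoxia held more of both arms at 0 h, by log2 1.29 for miR-460-5p and 1.12 for miR-460-3p, with no overlap in either, as for 17.6% of 216 miRNAs. At 24 h miR-460-3p was higher by log2 2.87 without overlap, as for 62.0% of 205 miRNAs, while miR-460-5p overlapped (log2 0.60). At 4 h miR-460-3p was lower in severe hypoxia by log2 -0.40 (10.5% of 219 miRNAs were lower without overlap), and at 12 h by -0.57 (53.9% of 217). Relative to the listed total the 0 h differences were 1.42 and 1.25 and those at 24 h 0.01 for miR-460-5p and 2.32 for miR-460-3p. The 3p difference at 4 h was then -1.07, and that at 12 h was -0.06. Severe libraries are those of the choice, so these differences carry no test either.

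**Figure D2:**
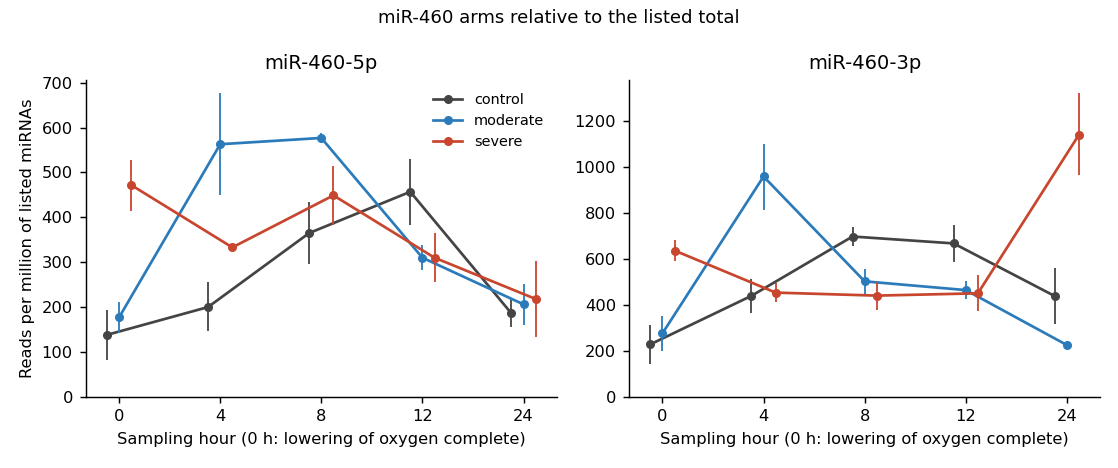
Mean level of each arm in listed-scaled rpm (per listed total) over the 5 sampling hours, with vertical lines from the lower to the higher measured value of each group and hours drawn as evenly spaced categories. After division by the listed total the highest 5p means are those of moderate hypoxia at 4 and 8 h (563 and 577), and the highest 3p mean is that of severe hypoxia at 24 h (1140).

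Moderate hypoxia was compared with the same control libraries that took part in the choice of the arms. The intervals and p-values of this comparison are therefore not independent of the choice, above all where moderate hypoxia lay higher, and are given as measures of size against spread. limma's moderated linear model was fitted over 228 miRNAs, with p-values adjusted by the Benjamini-Hochberg method over all miRNAs tested in a comparison. As a mean over the 5 hours, neither arm was called. miR-460-5p differed by log2 0.26 (SE 0.19, 95% interval -0.14 to 0.65, adjusted p = 0.338) and miR-460-3p by log2 -0.30 (SE 0.15, interval -0.63 to 0.02, adjusted p = 0.145), while 37.6% of 197 miRNAs were called. The 2 arms lay on opposite sides of 0. The miR-460-3p mean was called without library 3 of control at 0 h (-0.42, adjusted p = 0.0279 in limma). Hour by hour, 1 of 10 tests of the arms was called, that of miR-460-3p at 8 h.

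At 4 h of moderate hypoxia both arms lay above control while most other miRNAs lay below it. miR-460-5p had 211 and 352 rpm in moderate hypoxia against 108 and 195 rpm in control. miR-460-3p had 382 and 572 rpm against 280 and 379 rpm. The measured values did not overlap for either arm, which held in this direction for 7.37% of 217 miRNAs. Of 69 precursors with both arms comparable miR-460 was the 1 (1.45%) in which both arms did so. These control libraries had served in the choice of the arms, so the lack of overlap is not independent of that choice. As deposited the fit called neither arm at 4 h. The log2 difference was 0.91 for miR-460-5p (SE 0.42, interval 0.02 to 1.79, adjusted p = 0.101) and 0.52 for miR-460-3p (SE 0.35, interval -0.20 to 1.24, adjusted p = 0.237), where 37.0% of 216 miRNAs were called and 1.39% were called higher. Without 1 library the 5p difference lay between 0.48 (without library 1 of control) and 1.33 (without library 3 of control), and the 3p difference between 0.23 (without library 3 of moderate hypoxia) and 0.81 (without library 1 of moderate hypoxia). Over all tested miRNAs the median was log2 -0.51, and the listed total was 433628 to 519855 rpm against 739872 to 763808 rpm.

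Relative to the listed total, both arms passed the threshold as higher at 4 h of moderate hypoxia, against control libraries that had served in the choice. The difference was log2 1.51 for miR-460-5p (interval 0.64 to 2.37, adjusted p = 0.0173 in limma) and 1.13 for miR-460-3p (interval 0.41 to 1.85, adjusted p = 0.0307), where 9.26% of 216 miRNAs were called higher. Scaling by the median of ratios gave 1.46 (adjusted p = 0.0186) and 1.08 (adjusted p = 0.0347), where 6.94% were called higher. The direction at 4 h was the same in all 3 scalings, and the call depended on the scaling. Of the marker lists, the summed hepatocyte markers (4 listed of 6, 0 at 0) were at 8030 to 44800 rpm in moderate hypoxia and 87700 to 99700 rpm in control, the leukocyte markers (6 of 10) at 1340 to 2360 and 3980 to 4510 rpm, and the pancreas markers at 91.4 to 197 and 338 to 353 rpm. The erythrocyte sum overlapped between these groups, and so did those of muscle and neurons. The endothelial sum overlapped too, although its 4 members were all called, 1 higher and 3 lower. Their part in the result was not tested.

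**Figure D3:**
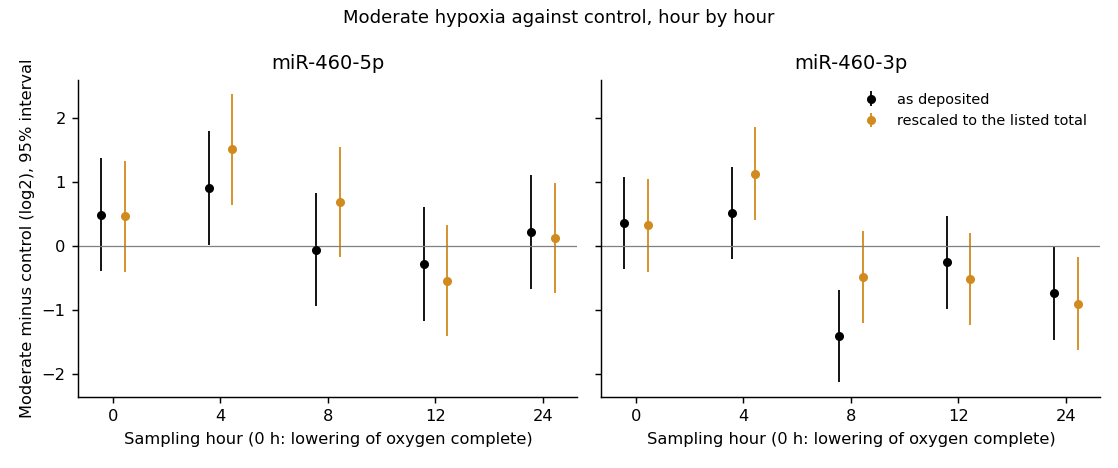
Difference of moderate hypoxia minus control (log2, with the 95% interval of the limma fit) at each sampling hour for miR-460-5p (left) and miR-460-3p (right), in deposited rpm and relative to the listed total. At 4 h the rescaled values of both arms lie above 0 (1.51 and 1.13), and at 8 h miR-460-3p lies at -1.41 as deposited and -0.48 after rescaling.

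At 8 h of moderate hypoxia the 3p arm was lower than control and the 5p arm was not. miR-460-3p had 181 and 249 rpm against 511 and 626 rpm, and it fell by 1.41 on the log2 scale (SE 0.35, interval -2.13 to -0.69, adjusted p = 0.00497 in limma). miR-460-5p had 264 and 266 rpm against 225 and 338 rpm (log2 difference -0.06, interval -0.94 to 0.83, adjusted p = 0.931). At this hour 34.0% of 215 miRNAs were called, 33.5% as lower, measured values lay below control without overlap for 76.3%, and the median was log2 -0.56, so a lower value was common. The call of miR-460-3p ended after rescaling to the listed total (log2 -0.48, adjusted p = 0.448, 5.12% called), after scaling by the median of ratios (-0.80, adjusted p = 0.192, 7.44% called) and without library 2 of moderate hypoxia at 8 h (-1.18, adjusted p = 0.0568). The erythrocyte sum was 621 to 1030 rpm in moderate hypoxia and 3130 to 5820 rpm in control, the endothelial sum 14600 to 15700 rpm and 35700 to 49300 rpm, the hepatocyte sum 39200 to 47100 rpm and 70900 to 91300 rpm, and the leukocyte sum 1640 to 1710 rpm and 2770 to 2840 rpm. The neuronal sum was higher in moderate hypoxia (50.2 to 52.4 rpm against 34.5 to 45.3 rpm). Their part in the result was not tested.

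At the other hours neither arm was called. The 0 h differences were log2 0.49 for miR-460-5p (interval -0.39 to 1.38) and 0.36 for miR-460-3p (interval -0.36 to 1.08), where 17.1% of 216 miRNAs were called. At 0 h moderate libraries had 89.4 and 137 rpm of the 5p arm and 126 and 227 rpm of the 3p arm, which overlap control. At 12 h they had 262 and 325 rpm of the 5p arm and 407 and 469 rpm of the 3p arm, with log2 differences of -0.28 and -0.25 and 3.21% of 218 miRNAs called. The 3p values at 12 h nearly touched those of control, 468.54 below 468.68 rpm, and 22.5% of miRNAs were lower without overlap. At 24 h the 5p arm had 59.1 and 83.7 rpm (log2 0.22, interval -0.67 to 1.10) and the 3p arm 79.5 and 84.9 rpm (log2 -0.74, interval -1.47 to -0.02, adjusted p = 0.123), with 20.2% of 208 miRNAs called. The 3p values at 24 h lay below all control values, as did those of 35.6% of 208 miRNAs.

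The hourly differences of miR-460-3p were unequal. An F-test of the 5 differences of moderate hypoxia minus control, added after the data were seen, gave a range of 1.93 log2 from 0.52 at 4 h to -1.41 at 8 h (adjusted p = 0.00979 in limma). The control libraries in this F-test had served in the choice of the arms, so it is not independent of that choice. It was called for 67.0% of 197 miRNAs. Under the rescalings by listed total and by the median of ratios the adjusted p was 0.0159 and 0.0246, where 46.7% and 35.0% were called. For miR-460-5p the range was 1.19 log2 (adjusted p = 0.372).

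Over time within moderate hypoxia, a comparison that uses none of the libraries of the choice other than for the pooled spread, both arms changed. The mean of miR-460-5p was 113 rpm at 0 h, 282 at 4 h, 265 at 8 h, 294 at 12 h and 71.4 at 24 h, a range of 2.04 log2 between group means (F-test in limma, adjusted p = 0.000376). That of miR-460-3p was 177 rpm at 0 h, 477 at 4 h, 215 at 8 h, 438 at 12 h and 82.2 at 24 h, a range of 2.50 log2 (adjusted p = 1.08e-05). Such a change was the rule, with 85.0% of 200 miRNAs called. After rescaling to the listed total the ranges were 1.72 log2 (adjusted p = 0.00244) and 2.07 log2 (adjusted p = 0.000330), with 69.0% called. Between 4 and 12 h the 5p means lay from 265 to 294 rpm, while the 3p values at 8 h, 181 and 249 rpm, lay below all those at 4 and 12 h. This held in deposited rpm. In listed-scaled rpm the 5p means were 563, 577 and 310 at 4, 8 and 12 h, and the 3p values at 8 h (448 to 556) overlapped those at 12 h (424 to 505). Marker members changed over the same hours, with 4 of 4 hepatocyte, 2 of 2 erythrocyte, 4 of 4 endothelial, 4 of 5 leukocyte, 3 of 3 pancreas, 3 of 3 neuronal and 1 of 1 muscle members called. The erythrocyte sum was low at 8 h (621 to 1030 rpm) and 24 h (502 to 578 rpm) and at 1850 to 2710 rpm at the other hours. Their part in the result was not tested.

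Within a library the ratio of the arms is free of its scaling. miR-460-3p exceeded miR-460-5p in 21 of the 24 libraries in which both arms were measured. The 3 exceptions were at 8 h, in moderate hypoxia (ratio 0.943) and severe hypoxia (0.974 and 0.989). The arms were nearly equal in these libraries, where the counting error of each arm was 3.9% to 5.2%. The ratio of group means had a median of 1.49 over the 15 groups. In control it was 1.65 at 0 h, 2.18 at 4 h, 2.02 at 8 h, 1.46 at 12 h and 2.32 at 24 h. In moderate hypoxia it was 1.56, 1.70, 0.810, 1.49 and 1.15 at the same hours. In severe hypoxia it was 1.35, 1.37, 0.980, 1.37 and 5.29. The group ratio was thus nearest to or below 1 at 8 h of hypoxia and highest at 24 h of severe hypoxia. A ratio of group means can set partly different libraries against each other. For control at 8 h both arms were measured in 1 library only, where the ratio was 1.51. This also held for moderate hypoxia at 8 h (0.943) and 24 h (1.34). The same was true of severe hypoxia at 4 h (1.5), 12 h (1.46) and 24 h (3.19). Among libraries with both arms measured the highest ratio was 3.51, in library 1 of control at 4 h. Over such libraries the log2 arm difference of severe hypoxia minus control was -0.62 at 8 h and 0.48 at 24 h.

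**Figure D4:**
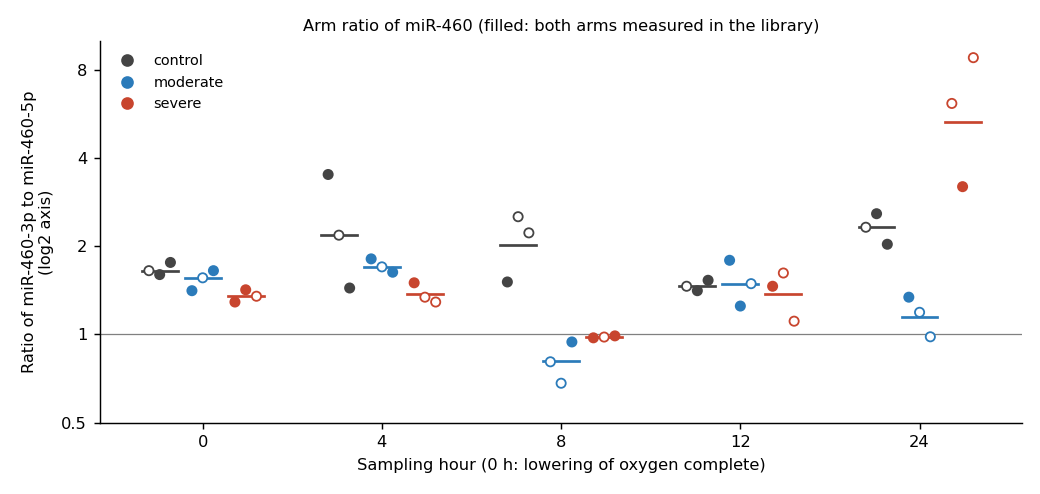
Ratio of miR-460-3p to miR-460-5p in each library on a log2 axis, by sampling hour and oxygen group. Filled points are libraries with both arms measured, open points have at least 1 averaged arm, and the grey line marks equal arms. Bars are ratios of group means, which can rest on partly different libraries. The bars of moderate and severe hypoxia at 8 h lie at 0.810 and 0.980, and that of severe hypoxia at 24 h lies at 5.29.

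The log2 difference of the arms, 3p minus 5p, was fitted for 73 of the 97 precursors with both arms listed. In these 73 both arms averaged 1 rpm or more and were measured together in at least 1 library. Moderate hypoxia was tested against control, with p-values adjusted over the precursors tested. The arm difference was not called for miR-460. The mean over hours was log2 -0.39 relative to control (SE 0.16, interval -0.74 to -0.03, adjusted p = 0.112 in limma), with 15.7% of 51 precursors called. At 8 h it was -0.68 (interval -1.66 to 0.30) from 1 library per group. The value at 24 h was -0.76 (interval -1.61 to 0.09), with both arms measured in 1 library only of moderate hypoxia. At 4 h it was -0.38 (adjusted p = 0.509, 6.15% of 65 called), but -1.03 without library 3 of control at 4 h (adjusted p = 0.0176), which also moved the mean over hours to -0.51 (adjusted p = 0.00574). The change over time within moderate hypoxia spanned 0.86 log2 (adjusted p = 0.371), where 38.2% of 55 precursors were called.

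Among precursors, miR-460 was one of those with arms of similar level. Its mean log2 difference over the 15 groups was 0.68 in favour of the 3p arm, the 43rd of the 73 fitted precursors in order from 5p to 3p. Just below it lay miR-144 (0.55) and miR-210 (0.54), and just above it miR-16c (1.12) and miR-148 (1.26). Both this order and the range below set group means of each arm against each other, which can rest on partly different libraries. Between groups the arm difference of miR-460 so taken varied by 2.70 log2, from moderate hypoxia at 8 h to severe hypoxia at 24 h. This range was the 23rd widest of 61 precursors with both arms in every group, whose median was 2.28 log2. In each of these 2 groups both arms of miR-460 were measured in 1 library only, where the difference was -0.08 and 1.67.

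**Figure D5:**
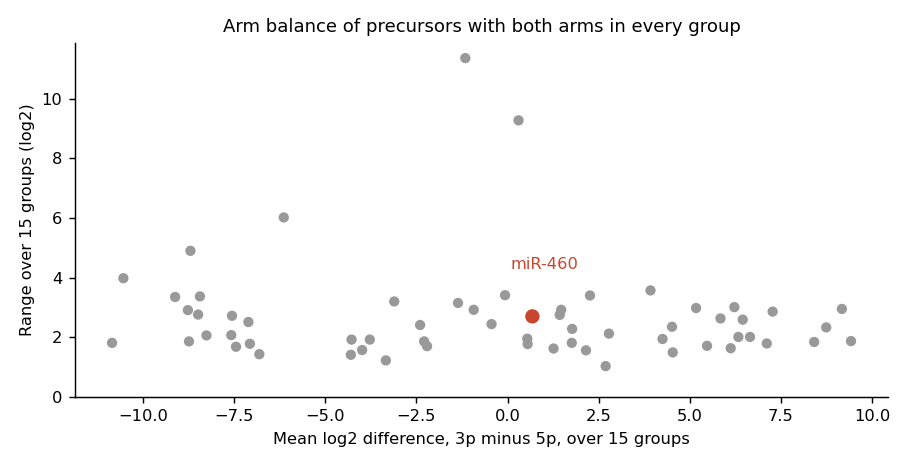
Mean log2 difference of the arms (3p minus 5p, horizontal axis) and its range over the 15 groups (vertical axis, log2) for the 61 precursors with both arms in every group, with miR-460 in red. Differences are those between group means of each arm, which can rest on partly different libraries. miR-460 lies near equal arms (0.68) and its range of 2.70 is close to the median of 2.28.

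Over the 15 group means of log2(rpm + 1), the arms followed each other with a Pearson r of 0.72 (Spearman 0.68), and 0.58 (Spearman 0.72) after rescaling. The points share their libraries and the rpm denominator, and the listed total alone gave r = 0.57 with miR-460-5p and 0.60 with miR-460-3p. Of 151 other miRNAs with at least 10 rpm and a value in every group, those most like miR-460-5p were miR-455-3p (r = 0.79), miR-107a-3p (0.74) and miR-18a-5p (0.73). Those most like miR-460-3p were miR-30a-5p (0.77), miR-30d-3p (0.76) and miR-140-3p (0.73). The median r of all candidates was 0.43 for the 5p arm and 0.38 for the 3p arm. After rescaling no miRNA reached 0.70, and the leading values were 0.60 for miR-455-3p with the 5p arm and 0.58 for miR-30d-3p with the 3p arm. These values are descriptions over 15 points.

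At 4 h of moderate hypoxia the tested members of a hypoxia list lay below control, while both arms of miR-460 lay above it. As deposited neither arm of miR-460 was called there (adjusted p = 0.101 and 0.237 in limma). The control libraries had served in the choice of miR-460, so this contrast is not independent of that choice. miR-210, a target of hypoxia-inducible factor in mammals, and miR-462, of a fish cluster that responds to low oxygen, gave 3 tested members of a list of 6. At 4 h of moderate hypoxia 3 of 3 were lower than control as deposited (list median log2 -1.51, against -0.51 over all tested), where 35.6% of 216 miRNAs were called lower. On the log2 scale miR-462-5p fell by 1.56, miR-210-3p by 1.51 and miR-210-5p by 1.42, with adjusted p = 0.00169, 0.00174 and 0.00335 in limma. After rescaling to the listed total the differences were -0.91, -0.79 and -0.68, with adjusted p = 0.0603, 0.0840 and 0.153, so none was called there. With median-of-ratios scaling, calls were made for miR-462-5p at -1.06 and miR-210-3p at -0.93 (adjusted p = 0.0308 and 0.0493), where 11.6% were called lower. At 8 h of moderate hypoxia, where miR-460-3p was called lower, 3 of 3 were called lower as deposited (list median log2 -1.45). This held for 33.5% of 215 miRNAs. Relative to the listed total, miR-462-5p alone of them was called at 8 h (-1.14, adjusted p = 0.0449 in limma), where 5.12% were called. At 24 h of moderate hypoxia 0 of 3 were called in either direction, where 20.2% of 208 miRNAs were called. As deposited, 0 of 3 were also called at 0 h (17.1% of 216 called) and at 12 h (3.21% of 218 called). miR-462-5p lay higher at 0 h, by log2 0.98 (adjusted p = 0.0540 in limma). Relative to the listed total it was called higher at 0 h (0.98, adjusted p = 0.0443), where 16.2% of 216 were called higher. With median-of-ratios scaling it was not called at 0 h (0.63, adjusted p = 0.226). Over the 15 groups the r with miR-460-5p was 0.45 for miR-462-5p, 0.35 for miR-210-5p and 0.24 for miR-210-3p, against a candidate median of 0.43. With miR-460-3p it was 0.43, 0.39 and 0.18 in the same order, against a candidate median of 0.38. In severe hypoxia at 12 h miR-210-5p averaged 694 rpm against 136 rpm in control, and miR-210-3p 543 against 140 rpm. At 0 h, where miR-460 lay higher, miR-210-5p (120 against 205 rpm) and miR-210-3p (175 against 190 rpm) lay lower. Both were also lower at 8 h (175 against 204 rpm and 149 against 255 rpm). At 4 h miR-210-5p was lower (191 against 216 rpm) and miR-210-3p higher (550 against 339 rpm). At 24 h both were higher (128 against 52.8 rpm and 138 against 94.2 rpm). miR-462-5p lay lower at 4 h (2150 against 4920 rpm), 8 h (4340 against 8440 rpm) and 12 h (4610 against 5610 rpm). It lay higher at 0 h (4930 against 2970 rpm) and 24 h (2420 against 1610 rpm). miR-731-5p held 3 identical values in each group where it was above 0, counted as 1 value, and could not be tested. It was at 155, 231 and 268 rpm at 0, 4 and 8 h of severe hypoxia and at 0 in control at these hours. In moderate hypoxia it was at 177 rpm at 12 h and at 0 at the other hours. At 24 h it was at 120 rpm in control and at 0 in severe hypoxia. These levels were not tested.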

How the data were processed

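Small RNA of 15 to 35 nt from liver total RNA (RNA integrity number above 6.5) was sequenced on an Illumina HiSeq, per the labels' protocols. The deposited values were read as rpm: the file headers name no unit, columns hold decimals and sum to at most 961089 per library, and low values are spaced in steps. Trimming, alignment, genome build and the rpm denominator are not given in any source used here. The series' design text names another fish and a temperature experiment, so the sample labels were followed. No column of other samples was present.

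Within a group, a value that equalled the average of its 2 companions (tolerance 0.0101 rpm or 0.1%) was set to missing (85.6% of 3607 sets above 0; 11.3% held 3 identical values, of which 1 was kept), and so were groups at 0. Listed totals, the factors of both rescalings and marker sums kept all deposited values, averaged ones included. Depth was inferred from the step between low values (12 rpm or less, tolerance 0.006 rpm), on which a median of 97.4% of them fell (69.8% to 100.0% per library). Read numbers of both arms were inferred from this step and served for the counting error only. Because the deposited values are not counts and averaged values are no whole multiples, no count test was run.

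The 228 miRNAs averaging 1 rpm or more were fitted on log2(rpm + 1) in R 4.3.3 with limma 3.58.1, variance trend, 15 groups in 1 fit (median residual SD 0.319 log2), tests two-sided except the F-tests, called at an adjusted p under 0.05. Fitted arm differences, and those of severe hypoxia minus control, used libraries with both arms measured. The order and range of precursors by arm difference used group means of each arm instead. The fit was tested on simulated data. Figures used matplotlib 3.10.9.

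The members, lists and the averaging rule were chosen with earlier results of these data known. Named miRNAs are both arms, the 3 most correlated with each, a hypoxia list, and the 2 precursors on either side of miR-460 in arm balance. Alternatives were pseudocounts of 0.1 and 5 rpm, no filter, 2 rescalings, all 3 values counted, fewer libraries, single hours and libraries left out, and a replicate block.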

Additional observations from a re-analysis of the deposited data

Results flagged for a closer look

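For miR-460-3p the difference of moderate hypoxia minus control varied between hours, with a range of 1.93 log2. An F-test of the 5 hourly differences gave an adjusted p = 0.00979 in limma (0.0159 and 0.0246 under the 2 rescalings). The differences were log2 0.36 at 0 h, 0.52 at 4 h, -1.41 at 8 h, -0.25 at 12 h and -0.74 at 24 h. This test was added after the data were seen, and 67.0% of all tested miRNAs met the same threshold. The control libraries in it had also served in the choice of the arms.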

How the results depend on the processing

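Scaling decided the calls of moderate hypoxia against control at 4 and 8 h. Rescaled to the listed total, the log2 difference at 4 h was 1.51 for miR-460-5p and 1.13 for miR-460-3p, both called, and miR-460-3p at 8 h was -0.48, not called. Rescaled by the median of ratios, these were 1.46, 1.08 and -0.80, with the same calls. The numbers of miRNAs called fell from 74 to 33 and 49 (mean over hours), 80 to 37 and 40 (4 h) and 73 to 11 and 16 (8 h) under the 2 rescalings, and went from 7 to 15 and 12 at 12 h. The difference between hours was called for 69 instead of 132 by the median of ratios. Severe hypoxia minus control for miR-460-3p moved to -0.67 and -0.84 at 8 h and to 1.42 and 1.62 at 24 h. With a pseudocount of 5 rpm, 13 miRNAs were called at 12 h.

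Counting all 3 deposited values treats averaged values as measurements and narrows the spread. It called miR-460-3p for the mean over hours (-0.31), at 4 h (0.53) and at 24 h (-0.75), miR-460-5p at 4 h (0.90) and between hours (1.18), and the arm difference for the mean (-0.56), 8 h (-1.34), 24 h (-0.97), time (1.08) and between hours (1.37). Then 118 miRNAs were called for the mean, 125 at 0 h, 146 at 4 h, 152 at 8 h, 90 at 12 h and 118 at 24 h, and the arm difference of severe hypoxia minus control was -1.05 instead of -0.62 at 8 h and 1.27 instead of 0.48 at 24 h. The mean over hours of miR-460-3p was called without 0 h (-0.47) and without 4 h (-0.51). The number of miRNAs called for the mean was 47 without 4 h and 42 without 8 h.

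Leaving out 1 library gave miR-460-3p at 8 h -1.64 to -1.18 and its mean over hours -0.42 to -0.19. The arm difference ranged from -0.51 to -0.26 (mean) and -1.03 to 0.26 (4 h). Numbers of miRNAs called were 13 to 40 at 0 h, 48 to 98 at 4 h, 30 to 67 at 8 h, 2 to 7 at 12 h and 20 to 44 at 24 h. Some arm differences could not be computed, where no library with both arms was left. Same-numbered control and moderate libraries had a correlation of deviations over 0.1 in 5 of 15 pairs (-0.20 to 0.47), so the numbers were not taken as pairs. A replicate block gave miR-460-3p at 8 h -1.47 (adjusted p = 0.00659 in limma) and changed no call of either arm. With 2 measured values per group, small differences were not detectable.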

Other observations

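The gap between the 2 measured values of a group differed widely. For miR-460-5p it had a median of 34.4% of the mean over the 15 groups, from 0.856% in moderate hypoxia at 8 h (263.91 and 266.18 rpm) to 84.2% in control at 0 h. For miR-460-3p it had a median of 30.2%, from 6.68% to 76.3%. In 3 of 15 groups for the 5p arm and 1 of 15 for the 3p arm the gap was smaller than the counting error expected from the inferred reads, and at moderate 8 h that error was 6.89%.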
